A study of Mus musculus with 2 samples.

Results

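The genes described here are 37 cell division genes, taken by symbol from the 31053 genes of the deposited count tables, in which all 37 were found. They comprise 17 genes of S phase and 20 genes of G2 phase and mitosis (G2 and M). The samples were 2 single-cell RNA libraries of sorted mouse hippocampal cells, 1 from Mr1+/+ mice and 1 from Mr1-/- mice, which lack the antigen-presenting molecule MR1. The mice of both libraries were 7 months old and untreated, and the sort took live nucleated cells (DAPI- Draq5+). Both libraries were made with a 10x Genomics kit that reads the 5' ends of transcripts, and the sources used here do not give how many mice each pools. With 1 library per genotype, genotype and library cannot be told apart, no difference was tested, and every interval below is a 95% interval that covers counting error only.

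A dividing cell first licenses and copies its DNA, then condenses and separates the copies. The S phase genes encode the MCM helicase that unwinds DNA (Mcm2 to Mcm7), its loaders and partners (Cdc6, Cdt1, Gins2), the polymerase clamp and its partner (Pcna, Pclaf), enzymes that make DNA precursors or keep uracil out of DNA (Tyms, Rrm1, Rrm2, Dut, Ung) and a histone (Hist1h2ap). The G2 and M genes encode cyclins and their kinase (Ccna2, Ccnb1, Ccnb2, Cdk1), mitotic kinases and checkpoint proteins (Aurka, Aurkb, Plk1, Bub1, Bub1b), and proteins of kinetochores, spindle and chromosomes. Others act in ordered protein destruction (Cdc20, Ube2c). In the adult hippocampus, division is known chiefly from neural progenitors of the dentate gyrus, oligodendrocyte precursors and microglia, while mature neurons and oligodendrocytes are post-mitotic.

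The promoters of many such genes carry letters read by 2 kinds of regulator, and 5 are shown here because genes of both phases were high in the same few cells. The E2F letters searched were TTTCCCGC, TTTCGCGC, TTTGCCGC and TTTGGCGC, and those of the cell cycle homology region (CHR) were TTTGAA and TTCGAA, on either strand. Sequences are from RefSeq (GRCm38.p6), end at or before the start site, and exclude bases that GENCODE M21 places inside the gene. Capitals mark the letters searched, which overlap each other in Mcm5 and in Mcm6.
Mcm5 (chr8:75109349-75109508, + strand): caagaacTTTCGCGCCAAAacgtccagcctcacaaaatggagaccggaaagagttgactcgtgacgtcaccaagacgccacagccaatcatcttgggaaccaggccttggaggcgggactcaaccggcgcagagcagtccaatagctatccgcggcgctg
Mcm6 (chr1:128359706-128359865, - strand): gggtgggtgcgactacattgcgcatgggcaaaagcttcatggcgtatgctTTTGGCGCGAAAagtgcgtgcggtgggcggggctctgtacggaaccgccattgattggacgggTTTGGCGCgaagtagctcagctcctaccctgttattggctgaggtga
Cdk1 (chr10:69352939-69353072, - strand): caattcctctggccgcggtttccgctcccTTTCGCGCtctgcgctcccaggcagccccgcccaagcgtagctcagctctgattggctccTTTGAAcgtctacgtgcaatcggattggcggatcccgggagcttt
Top2a (chr11:99024190-99024349, - strand): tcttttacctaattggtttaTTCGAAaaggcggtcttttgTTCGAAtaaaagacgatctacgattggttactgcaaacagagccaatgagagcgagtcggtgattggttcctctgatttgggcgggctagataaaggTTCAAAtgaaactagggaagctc
Mki67 (chr7:135716380-135716539, - strand): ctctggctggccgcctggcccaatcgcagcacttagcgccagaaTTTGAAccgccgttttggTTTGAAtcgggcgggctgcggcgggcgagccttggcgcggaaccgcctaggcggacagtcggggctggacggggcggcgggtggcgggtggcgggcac

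Promoters of 31 of the 37 genes were found in the RefSeq table. In the 250 bases before the start, 4 of 14 S phase genes (Cdc6, Mcm5, Mcm6 and Mcm7) and 1 of 17 G2 and M genes (Cdk1) held E2F letters, which were in 1.86% of all 32851 promoter windows of that length. The CHR letters were before 2 of the 14 S phase genes (Mcm2 and Mcm7) and 8 of the 17 G2 and M genes (Bub1b, Ccnb2, Cdc20, Cdk1, Hmgb2, Mki67, Top2a and Ube2c), against 17.1% of all windows. A match of letters is a description of the sequence and not a measured binding site.

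The 2 libraries held 23244575 and 18349132 UMIs (unique molecular identifiers, 1 per captured transcript) over 6410 and 5347 barcodes, of which 5992 Mr1+/+ and 5107 Mr1-/- cells were kept. The 2 libraries shared 44 barcodes, and none of the 19 cells described below had one. Mr1 itself had 130 UMIs (6.06 CPM, counts per 1000000 UMIs) in the kept Mr1+/+ cells and 2 (0.115 CPM) in the kept Mr1-/- cells. Cells were grouped into classes by clustering that left out the 37 genes and the other cell cycle genes, and a class was called after a cell type only from its markers.

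Most kept cells had a UMI of none (2842 in Mr1+/+ and 2299 in Mr1-/-) or 1 (1941 and 1733) of the 37 genes, and a small number had many. In Mr1+/+ 426 cells (7.11%, 6.47 to 7.79) and in Mr1-/- 348 cells (6.81%, 6.14 to 7.54) had a UMI of 3 or more of them. The difference of -0.295 points had an interval of -1.24 to 0.66, so a difference in that share was not detectable beyond counting error. No Mr1+/+ cell and 1 Mr1-/- cell had exactly 10 of the genes, and above that the counts were scattered up to 30 in Mr1+/+ and 35 in Mr1-/-. There were 6 Mr1+/+ cells and 13 Mr1-/- cells with 10 or more, a limit that was set after seeing these counts. They were 0.100% and 0.255% of kept cells. The difference of 0.154 points had an interval of -0.00415 to 0.343, which spans 0. Just inside it lay cells with 11 genes in Mr1+/+ and 10 in Mr1-/-, and just outside it lay 2 Mr1+/+ cells and 1 Mr1-/- cell with 9.

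**Figure D1:**
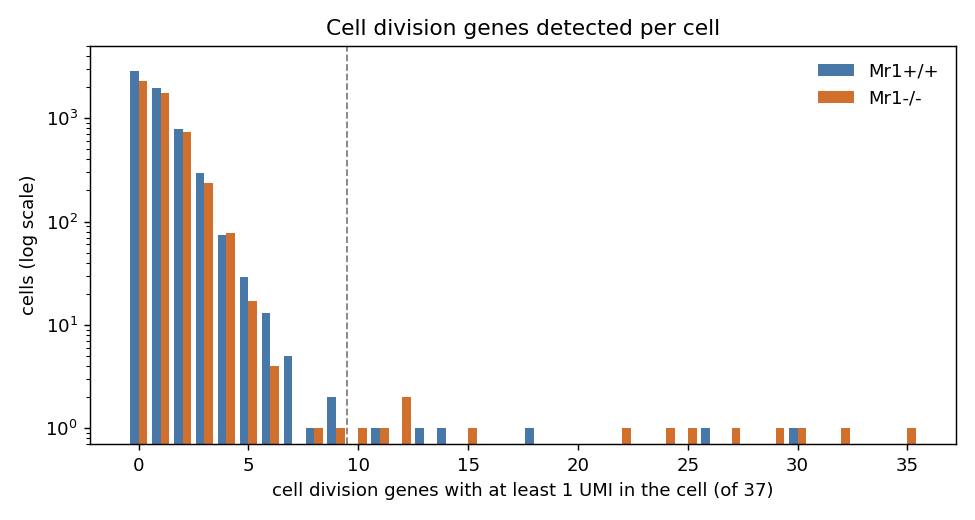
Number of kept cells (y axis, log scale) by how many of the 37 genes had at least 1 UMI in the cell (x axis), with Mr1+/+ in blue and Mr1-/- in orange. The dashed line marks the limit of 10, beyond which lie 6 Mr1+/+ and 13 Mr1-/- cells.

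The classes with the highest shares of cells with 3 or more of the genes were not only those known to divide. In neuroblast-like cells, named from markers of newborn neurons such as Sox11 and Igfbpl1, 23 of the 65 in Mr1+/+ (35.4%) and 29 of the 54 in Mr1-/- (53.7%) had 3 or more, which differed by 18.3 points (0.460 to 34.7). Ependymal-like cells, which line the ventricles and are post-mitotic in the adult, had 37.8% and 33.9%. Neuron-like cells had 27.4% and 28.7%, and 249 of the 266 Mr1+/+ and 160 of the 167 Mr1-/- cells of that class lay in a cluster led by Reln, a gene known from Cajal-Retzius neurons. Oligodendrocyte precursor-like cells had 28.6% and 15.2%, and microglia-like cells had 18.5% and 14.4%. In oligodendrocyte-like cells, a post-mitotic class chosen for comparison, the share was 5.01% of 1436 cells and 4.28% of 957 cells. That share was not tested as a background. Some of the genes had levels of their own there, as Pcna stood at 52.9 and 56.6 CPM, against 31.2 and 30.6 CPM in microglia-like cells. Endothelial-like, mural-like and astrocyte-like cells had between 1.26% and 3.48%, each below the oligodendrocyte-like share of its own library. That order changed in part after the thinning described below. Fibroblast-like cells had 1 of 29 and 6 of 32, with intervals that overlapped (0.0873 to 17.8% and 7.21 to 36.4%).

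Cells with 3 to 9 of the genes had more UMIs in all than cells with fewer, and in microglia-like cells they were led by a few genes. In microglia-like cells, the median was 9950 UMIs in the 115 Mr1+/+ cells with 3 to 9 genes against 3892.5 in cells with 0 to 2. The Mr1-/- microglia-like cells gave medians of 9217.5 and 3566.5. The genes found most often in them were Hist1h2ap (in 55.7% and 57.5% of these cells), Hmgb2 (54.8% and 50%) and Mcm3 (49.6% and 50.9%). In these cells 31 further S phase genes summed to 313 CPM in Mr1+/+ and 299 CPM in Mr1-/-, against 294 and 281 CPM in cells with 0 to 2 genes. A list of 35 further G2 and M genes summed to 299 and 271 CPM, against 314 and 256 CPM. Whether depth accounts for the cells with 3 to 9 genes was not tested beyond the thinning that follows.

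When each cell was thinned at random to 1500 UMIs, leaving out 844 and 525 shallower cells, the share with 3 or more genes fell to 0.680% in Mr1+/+ and 1.35% in Mr1-/-. In those same cells before thinning it had been 8.22% and 7.57%. The thinned difference of 0.673 points had an interval of 0.276 to 1.10, and went the other way from the unthinned one. Oligodendrocyte-like cells fell to 0.387% and 0.212%, and microglia-like cells to 0.805% and 0.954%. Mural-like cells fell to 0.621% and 1.03%, endothelial-like cells to 0.258% and 1.19%, and astrocyte-like cells to 0.118% and 0.221%. Unlike before thinning, mural-like cells then lay above the oligodendrocyte-like share in both libraries. Endothelial-like and astrocyte-like cells lay above it in Mr1-/-. All these intervals overlapped those of oligodendrocyte-like cells. Neuroblast-like cells kept the highest thinned share in Mr1-/-, with 15 of 52 cells (28.8%, 17.1 to 43.1), against 3 of 60 in Mr1+/+ (5%, 1.04 to 13.9). In Mr1+/+ the highest thinned share was that of oligodendrocyte precursor-like cells, with 4 of 39 (10.3%, 2.87 to 24.2). Endothelial-like cells gave 3 of 1165 and 16 of 1341, a difference of 0.936 points (0.260 to 1.69). Before thinning these same cells gave 4.29% and 3.95%, a difference of -0.340 points (-1.95 to 1.22). The thinning was drawn once, and variation between draws was not measured.

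**Figure D2:**
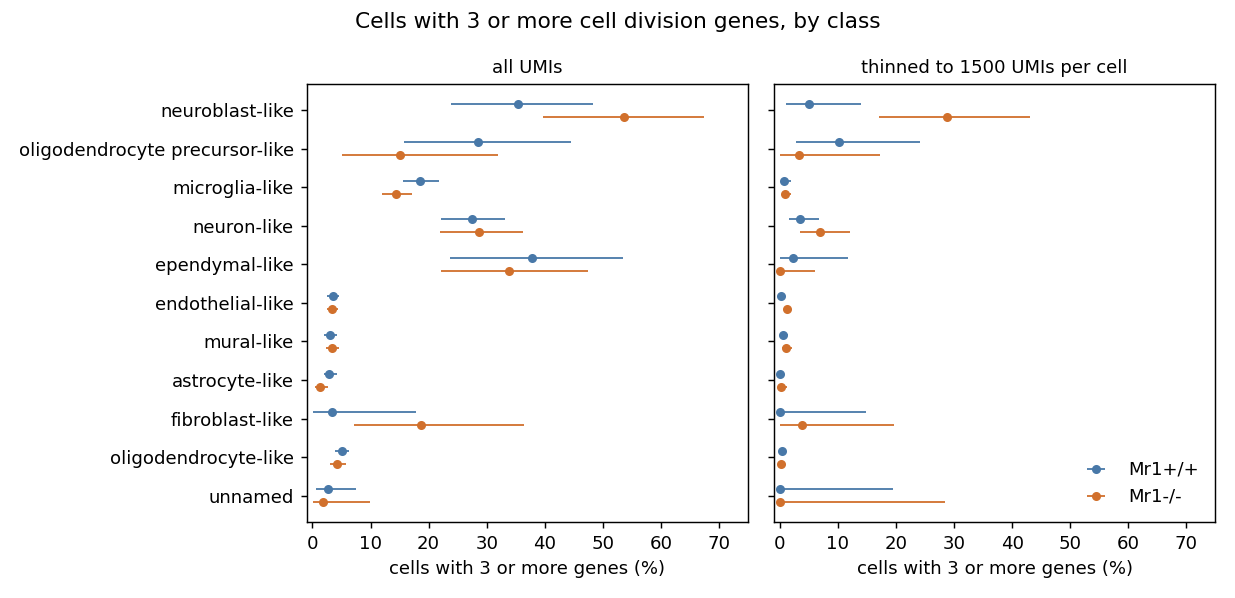
Percent of cells with a UMI of 3 or more of the 37 genes (x axis) by class (y axis), from all UMIs at left and after thinning to 1500 UMIs per cell at right, with exact binomial 95% intervals. At left neuroblast-like, ependymal-like and neuron-like cells have 27.4% or more in both libraries, while at right the highest share is 28.8%, in the Mr1-/- neuroblast-like cells.

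The cells with 10 or more genes were of 3 classes. In Mr1+/+ they were 3 microglia-like, 2 neuroblast-like and 1 oligodendrocyte precursor-like cell. In Mr1-/- they were 12 neuroblast-like cells and 1 microglia-like cell. They made up 3.08% of the Mr1+/+ and 22.2% of the Mr1-/- neuroblast-like cells, a difference of 19.1 points (7.43 to 32.1). The 1435 Mr1+/+ and 1558 Mr1-/- endothelial-like cells held none, which allows shares of up to 0.209% and 0.193%. None of the 335 and 171 barcodes called doublets had 10 or more, and their highest counts were 6 and 7 genes.

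Markers of the classes were read in these 19 cells as well. All 12 Mr1-/- neuroblast-like cells had UMIs of Sox11 and Sox4, transcription factors of newborn neurons, and 11 had Igfbpl1. Of the other newborn neuron markers, Dcx was found in 4 of the 12 and Neurod1 in 2, and neither was found in the Mr1+/+ neuroblast-like cells. Eomes, a factor of excitatory progenitors, was found in 4 of the 12, and Dlx2, a factor of inhibitory lineages, in 6. Both Mr1+/+ neuroblast-like cells had Sox11, Igfbpl1, Sox4 and 1 UMI of Dlx2, and neither had Eomes. The 3 Mr1+/+ microglia-like cells had 20 to 34 UMIs of the fractalkine receptor gene Cx3cr1, and the Mr1-/- one had 82. No UMI of Cx3cr1 or P2ry12 was seen in any of the 14 neuroblast-like cells, and the oligodendrocyte precursor-like cell had 17 UMIs of Pdgfra.

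The 19 cells ranged from S phase genes almost alone to G2 and M genes almost alone. The first Mr1+/+ microglia-like cell had 15 S phase UMIs of 10 genes and 1 G2 and M UMI. The second had 1 S phase UMI and 29 G2 and M UMIs of 13 genes, among them 6 of Cenpf (a kinetochore protein) and 5 of Ube2c. The third had 48 and 53, with 25 UMIs of Hist1h2ap. The Mr1+/+ oligodendrocyte precursor-like cell had 43 S phase UMIs, including 10 of Pclaf and 13 of the MCM genes, and 14 G2 and M UMIs.

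Among the 12 Mr1-/- neuroblast-like cells, 10 had more S phase than G2 and M UMIs and 2 had fewer; without Hist1h2ap the counts were 7 and 5. The cell with the most genes, 35 of 37, had 160 S phase and 258 G2 and M UMIs, including 83 of Hmgb2, 36 of Ube2c and 25 of Cenpf. Another had 425 S phase UMIs, 313 of them of Hist1h2ap, against 61 of G2 and M. One with 22 genes had UMIs of all 17 S phase genes, 31 of them of the MCM genes, but 1 UMI of Mki67 and none of Top2a. Over all cells with 10 or more genes, S phase genes made up 52.1% (47.5 to 56.7) of the 470 UMIs of the 37 genes in Mr1+/+ and 65.4% (63.4 to 67.3) of the 2346 in Mr1-/-. Hist1h2ap held 82 of the 245 and 921 of the 1534 S phase UMIs. Without it the shares were 42.0% (37.05 to 47.1) and 43.0% (40.4 to 45.6), with overlapping intervals. The intervals of these shares treat UMIs as independent and do not cover the wide spread between the cells. In cells with 3 to 9 genes the S phase share was 79.4% and 78.7%.

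**Figure D3:**
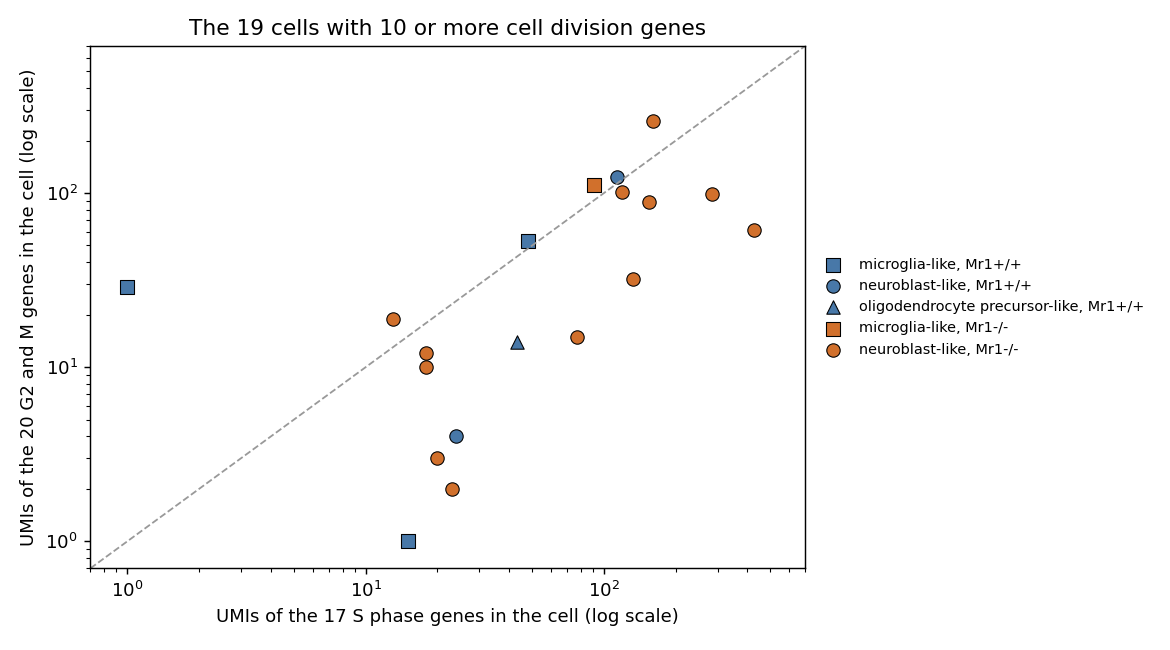
UMIs of the 17 S phase genes (x axis, log scale) against UMIs of the 20 G2 and M genes (y axis, log scale) in each of the 19 cells with 10 or more genes, by class (shape) and library (colour). Points under the dashed line of equal values have more S phase UMIs, as do 10 of the 12 Mr1-/- neuroblast-like cells.

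Other cell cycle genes were high in the same cells. The 31 further S phase genes summed to 3837 CPM in the 2 Mr1+/+ and 3455 CPM in the 12 Mr1-/- neuroblast-like cells with 10 or more genes. In neuroblast-like cells with 0 to 2 genes it summed to 478 and 477 CPM. The 35 further G2 and M genes summed to 7535 and 4559 CPM, against 628 and 519 CPM. Of the genes on no list, 9 of 12330 ranked were at least 4 times as high in cells with 3 or more of the 37 genes as in other cells of the same class mix, in both libraries. They were Pbk, Spc24, Esco2, Pimreg, Hist1h1b, Hist1h1a, Kifc1, Fignl1 and Cenpm. Of Pbk, which encodes a mitotic kinase, 13 of 14 Mr1+/+ UMIs and all 38 Mr1-/- UMIs in cells with 3 or more genes were in the cells with 10 or more. Of Spc24, which encodes a kinetochore protein, 10 of 16 and 35 of 36 were.

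For several of the genes most UMIs lay in those 19 cells. The cells were picked for having 10 or more of these same genes, so high shares there are in part set by that choice. Pclaf, which binds the replication clamp (chr9:65890237-65903266), had 31 UMIs in Mr1+/+ and 127 in Mr1-/-, of which 83.9% and 100% were in the cells with 10 or more genes. Top2a, the topoisomerase that untangles chromosomes (chr11:98992943-99024189), had 21 and 50 UMIs, with 90.5% and 100% there. Ube2c had 31 and 85 UMIs, with 87.1% and 94.1% there. Mki67, which encodes the proliferation marker Ki-67 (chr7:135689784-135716361), had 10 and 22 UMIs, with 60% and 95.5% there. These cells held 0.226% of all Mr1+/+ UMIs and 0.835% of all Mr1-/- UMIs. They held 14.9% and 39.4% of the G2 and M UMIs, and 5.48% and 29.4% of the S phase UMIs.

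Other genes had most of their UMIs elsewhere. Of the clamp gene Pcna, 1.21% and 6.29% of UMIs were in the cells with 10 or more genes, and 20.2% of Mr1+/+ and 21.2% of Mr1-/- oligodendrocyte-like cells had a UMI of it. Of the helicase genes, Mcm4 had 1.57% of its Mr1+/+ and 4.59% of its Mr1-/- UMIs in those cells, and Mcm7 had 2.09% and 8.52%. Outside neuroblast-like cells, Mcm3 stood at 38.9 and 40.7 CPM in microglia-like cells, and at 18.6 CPM or less in each of the endothelial-like, mural-like, neuron-like, astrocyte-like and oligodendrocyte-like classes. The chromatin protein gene Hmgb2 stood at 97.8 and 103 CPM in endothelial-like cells and at 10.1 and 8.36 CPM in oligodendrocyte-like cells.

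Cenpf (chr1:189640606-189688086) was found in neuron-like cells, where other mitotic genes were few or absent. Its level there was 115 CPM in Mr1+/+ and 131 CPM in Mr1-/-, from 122 and 85 UMIs. Top2a had no UMI in the 266 and 167 neuron-like cells, which allows levels of up to 2.82 and 4.62 CPM, and Mki67 had 1 and 0 UMIs. Dut, which removes dUTP, stood at 111 and 103 CPM in the same cells, against 3.97 and 4.80 CPM in microglia-like cells. No neuron-like cell had 10 or more of the 37 genes.

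**Figure D4:**
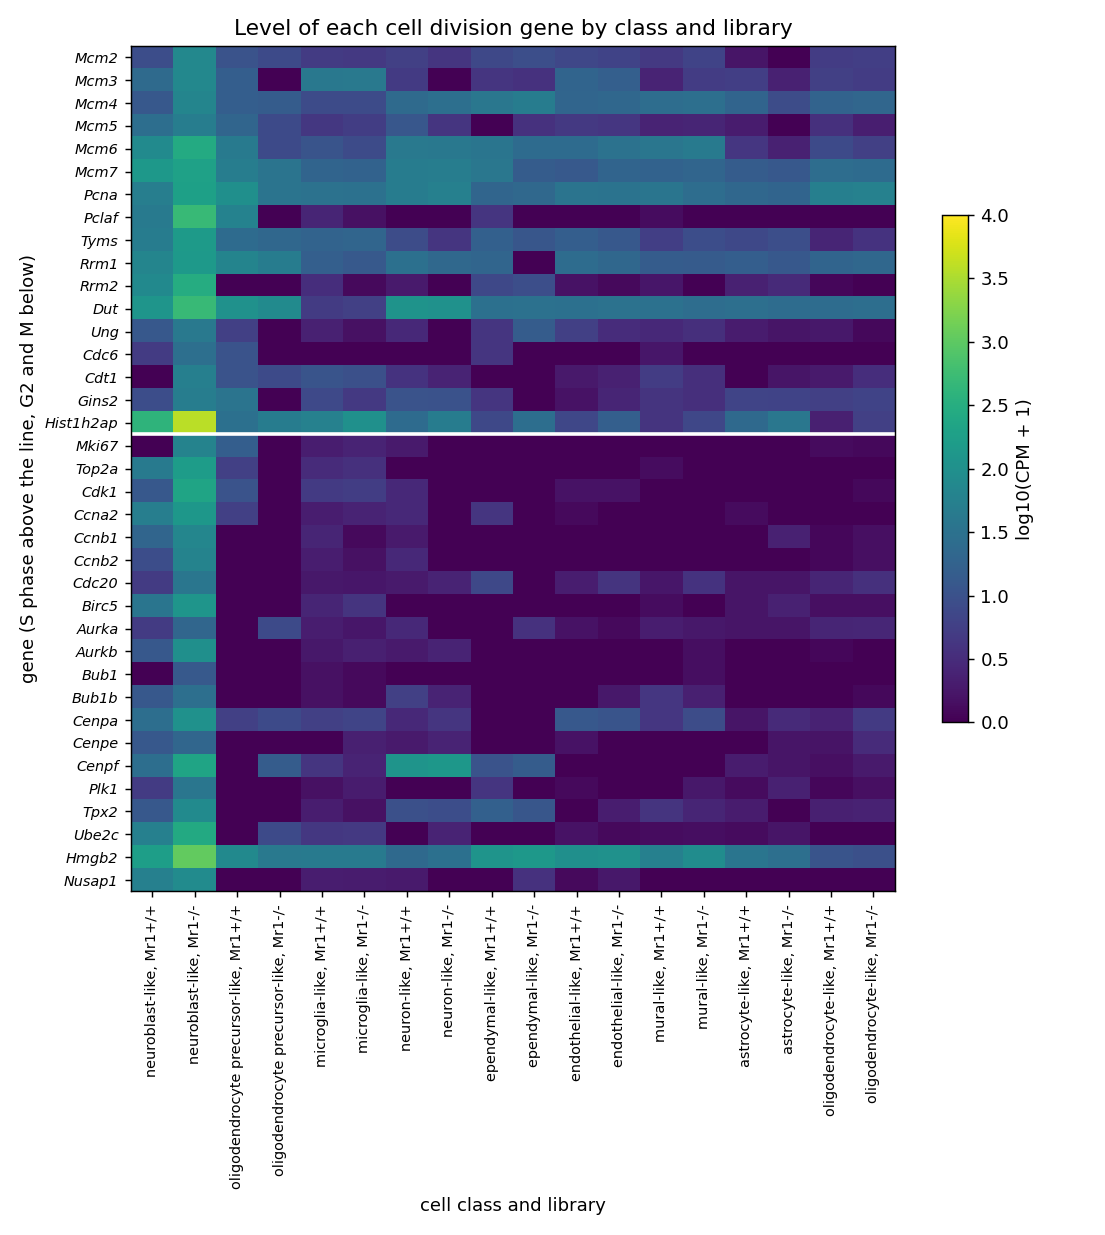
Level of each gene (rows, S phase above the white line) as log10 of CPM plus 1, by class and library (columns). The Mr1-/- neuroblast-like column is bright for both phases, while Pcna, Mcm4, Mcm7 and Hmgb2 have values in every class shown and Cenpf stands out in neuron-like cells.

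Between the libraries, both groups of genes were higher in Mr1-/- over all kept cells, and the ratio was larger for G2 and M. The 17 S phase genes summed to 208 CPM in Mr1+/+ and 301 CPM in Mr1-/-, a ratio of 1.44 (1.388 to 1.504). The 20 G2 and M genes summed to 70.3 and 119 CPM, a ratio of 1.69 (1.58 to 1.81). Without the cells with 10 or more genes, an alternative chosen after seeing the data, the ratios were 1.09 (1.04 to 1.13) and 1.21 (1.12 to 1.31). With Hist1h2ap left out as well, the S phase ratio was 0.989 (0.943 to 1.04). The mix of classes differed between the libraries, with 956 astrocyte-like cells of 5992 in Mr1+/+ and 477 of 5107 in Mr1-/-. How much that mix moved the ratios over all cells was not tested.

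Gene by gene, 35 of the 37 had at least 20 UMIs over both libraries, and 18 of these were at least 1.5-fold higher in Mr1-/-, against 4.86% of all 15377 genes with as many UMIs. None was at least 1.5-fold lower, against 5.53% of all genes. The 18 were 3 of 16 S phase genes (Hist1h2ap, Pclaf and Rrm2) and 15 of 19 G2 and M genes. The median log2 ratio of the 35 was 0.63, and that of all genes was -0.01. A minimum over both libraries favours genes that are high in 1 of them: 29 of the 37 had 20 UMIs in Mr1+/+ alone, and 12 of these were among the 18. Pclaf had a ratio of 5.07 (3.40 to 7.77), Cdk1 of 3.93 (2.43 to 6.58) and Ube2c of 3.39 (2.23 to 5.30). Replication genes with broad levels were nearer to 1, some with intervals above it and some spanning it. The ratio was 1.26 (1.09 to 1.46) for Mcm6, 1.32 (1.08 to 1.61) for Tyms and 1.19 (1.005 to 1.42) for Mcm3. It was 1.003 (0.904 to 1.11) for Pcna, 1.03 (0.903 to 1.18) for Mcm7 and 0.945 (0.814 to 1.10) for Rrm1, the large subunit of ribonucleotide reductase.

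Without the cells with 10 or more genes, 23 of the genes had at least 20 UMIs, and 2 of them, Cdc20 and Hist1h2ap, were at least 1.5-fold higher in Mr1-/-, against 4.59% of all genes. The checkpoint gene Bub1b was at least 1.5-fold lower, with 16 and 8 UMIs, against 5.78% of all genes. The interval for Cdc20, the activator of mitotic protein destruction, was 0.948 to 3.02 around a ratio of 1.68. For Cdk1 13 UMIs were left in Mr1+/+ and 8 in Mr1-/-, and for Top2a 2 and 0. Hmgb2 had a ratio of 1.27 (1.16 to 1.39), against 1.54 over all cells.

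**Figure D5:**
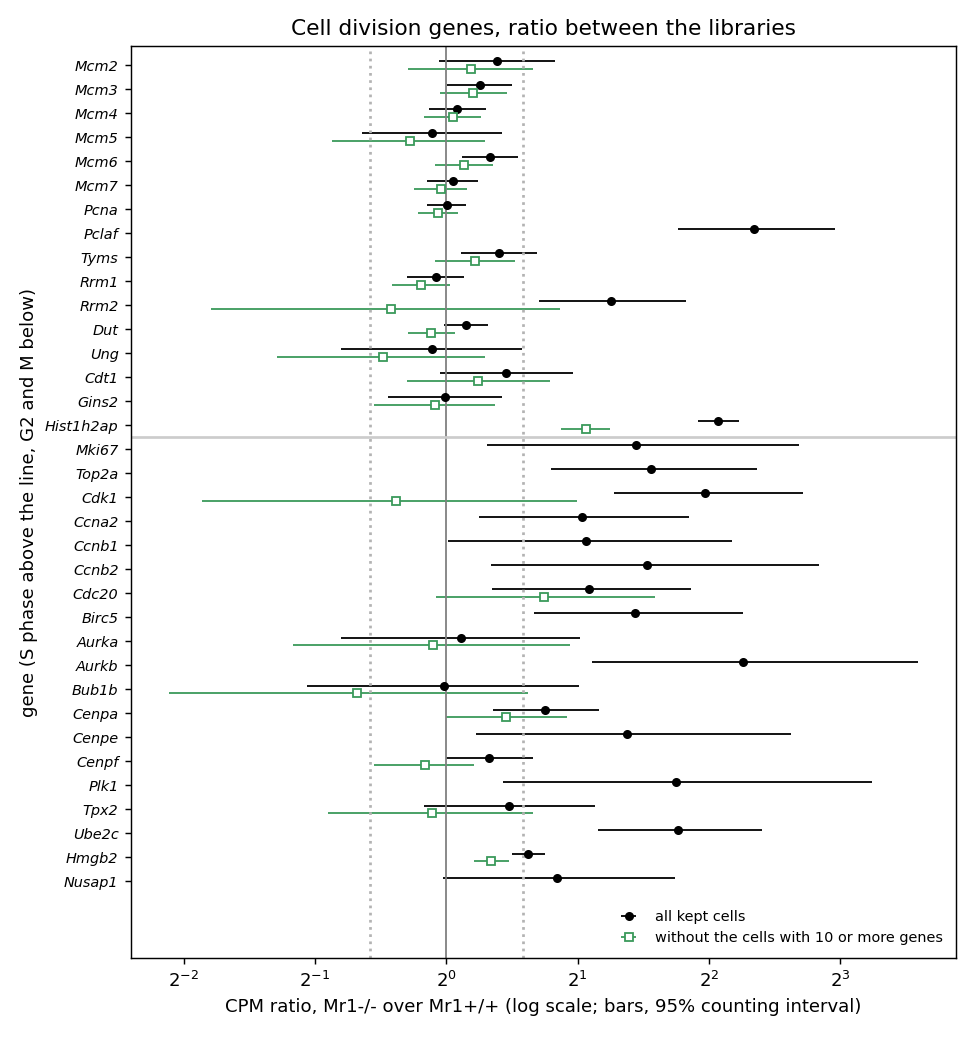
CPM ratio of Mr1-/- over Mr1+/+ (x axis, log scale) with 95% counting intervals for each gene with at least 20 UMIs, over all kept cells (black) and without the cells with 10 or more genes (green, where at least 20 UMIs were left). Dotted lines mark 1.5-fold each way. The green points lie within the dotted lines except for Hist1h2ap and Cdc20 above and Bub1b below.

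Within classes, neuroblast-like cells had the most genes past 1.5-fold. Of the 23 genes with at least 20 UMIs there, 22 were at least 1.5-fold higher in Mr1-/-, against 11.8% of all genes, and none was lower, against 18.4%. Much of that count was set by the minimum itself, since 6 of the 37 genes (Mcm6, Mcm7, Rrm2, Dut, Hist1h2ap and Hmgb2) had 20 UMIs in Mr1+/+ alone, and 5 of these were past 1.5-fold. The S phase genes summed to 1118 CPM in Mr1+/+ and 6460.1 CPM in Mr1-/-, and the G2 and M genes to 563 and 2888 CPM. Cdk1 stood at 11.6 and 213 CPM, and Mcm6 at 81.5 and 274 CPM. Mcm7, the remaining gene of the 23, had a ratio of 1.42 (0.902 to 2.27). Without the cells with 10 or more genes, 5 genes had 20 UMIs, of which Hist1h2ap and Hmgb2 were at least 1.5-fold higher, against 10.4% of all genes, and none was lower, against 16.6%. The G2 and M genes other than Hmgb2 had 5 and 2 UMIs left, and the S phase genes other than Hist1h2ap summed to 423 and 477 CPM, a ratio of 1.13 (0.807 to 1.56).

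Neuroblast-like cells were not of 1 kind, and their mix differed between the libraries. Clustering at resolution 2.0 split them into a cluster led by Igfbpl1 and Neurod1, with 41 Mr1+/+ and 24 Mr1-/- cells, and a cluster led by Dlx1, with 24 and 30 cells. The cluster led by Igfbpl1 held 1 Mr1+/+ and 8 Mr1-/- cells with 10 or more genes, and the cluster led by Dlx1 held 1 and 4. In the first, the G2 and M genes stood at 76.7 CPM in Mr1+/+ and 3719.9 CPM in Mr1-/-, from 14 and 576 UMIs, and the S phase genes at 635 and 8505 CPM. In the second, the G2 and M genes stood at 1744 and 1509 CPM, a ratio of 0.865 (0.677 to 1.11), and the S phase genes at 2289.9 and 3071 CPM, a ratio of 1.34 (1.11 to 1.63). In the cluster led by Dlx1, 1 Mr1+/+ cell held 124 of the 131 G2 and M UMIs. Without the cells with 10 or more genes, the first cluster had 10 and 10 G2 and M UMIs (57.3 and 153 CPM), a ratio of 2.67 (0.997 to 7.15). The second had 7 and 6, a ratio of 0.945 (0.262 to 3.28). The S phase ratios were then 1.28 (0.87 to 1.85) in the first and 2.22 (1.61 to 3.1005) in the second. Hist1h2ap held 37 of the 58 and 90 of the 117 S phase UMIs left in the second. Most G2 and M UMIs of both clusters were in the cells with 10 or more genes. Without those cells the G2 and M intervals of the clusters overlapped, with too few UMIs to tell whether the contrast remained. The split was looked at after seeing the data, and the difference between the clusters was not tested.

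Oligodendrocyte precursor-like cells, with 42 Mr1+/+ and 33 Mr1-/- cells, had lower S phase levels in Mr1-/-. The S phase genes had 121 and 45 UMIs (582 and 306 CPM), a ratio of 0.526 (0.365 to 0.747), and the 31 further S phase genes gave 0.430 (0.295 to 0.613). Without the 1 Mr1+/+ cell with 10 or more genes, the ratios were 0.785 (0.531 to 1.15) and 0.587 (0.397 to 0.855). The G2 and M genes had 24 and 11 UMIs, a ratio of 0.648 (0.287 to 1.38).

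In the other classes that held 50 cells or more per library, 1 to 4 genes were at least 1.5-fold higher in Mr1-/-, and at most 1 was lower. In mural-like and oligodendrocyte-like cells the share that was higher was well above that of all genes. In microglia-like cells, Hist1h2ap of 17 genes was higher in Mr1-/-, against 3.34% of all genes, and Gins2, a partner of the helicase, was lower, against 3.92%. In endothelial-like cells, Hist1h2ap and Mcm7 of 14 were higher, against 4.57%, and Ung, which removes uracil from DNA, was lower, against 3.66%. Astrocyte-like cells had Hist1h2ap higher and Mcm4 lower of 9, against 4.28% and 6.22%. In mural-like cells, 4 of 11 were higher (Cenpa, Hist1h2ap, Hmgb2 and Tyms), against 4.35%, and none was lower, against 4.82%. Oligodendrocyte-like cells had 4 of 15 higher (Cdc20, Cenpa, Hist1h2ap and Tyms), against 2.8%, and Mcm5 lower, against 3.96%. In neuron-like cells, Hist1h2ap of 9 was higher, against 6.86%, and none was lower, against 11%. Hmgb2 in mural-like cells went from 148 to 210 UMIs, or from 54.7 to 86.1 CPM, a ratio of 1.57 (1.269 to 1.956). Intervals spanned 1 for Gins2 in microglia-like cells, Ung in endothelial-like cells, and Cenpa, Hist1h2ap and Tyms in mural-like cells. They also spanned 1 for Cdc20, Mcm5 and Tyms in oligodendrocyte-like cells, and did not for the other genes named in these classes.

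Hist1h2ap, a replication-dependent H2A histone gene (chr13:21833026-21833507), was higher in Mr1-/- over all kept cells and without the cells with 10 or more genes. It had 455 UMIs in Mr1+/+ and 1546 in Mr1-/-, a ratio of 4.21 (3.79 to 4.68). Among the cells with 10 or more genes, single cells held 313 and 212 of its 921 Mr1-/- UMIs. In Mr1+/+ single cells held 56 and 25 of 82. Without the cells with 10 or more genes it had 373 and 625 UMIs, a ratio of 2.09 (1.83 to 2.38). In those remaining cells it stood at 49.0 and 82.6 CPM in the microglia-like class (1.69, 1.40 to 2.03) and at 193 and 782 CPM in the neuroblast-like class (4.05, 2.84 to 5.85). The mix of the 2 neuroblast-like clusters differed between the libraries, and within each the ratio was smaller. In the cluster led by Igfbpl1 it stood at 57.3 and 153 CPM (2.67, 0.997 to 7.15). In the cluster led by Dlx1 it stood at 537 and 1439 CPM (2.68, 1.81 to 4.04). Endothelial-like cells gave 6.20 and 15.5 CPM (2.51, 1.51 to 4.30), and oligodendrocyte-like cells, which are post-mitotic, 1.28 and 4.78 CPM (3.74, 1.58 to 9.81). Other histone genes went the same way in part. Of 37 histone genes with at least 20 UMIs over all kept cells, Hist1h2ap included, 23 had ratios above 1 without the cells with 10 or more genes. Their intervals lay above 1 for 12 genes and below 1 for 1 gene, and the median ratio was 1.15. The shares of all genes with ratios or intervals above 1 were not computed, so these counts have no background. Without those cells the median log2 ratio of all genes with at least 20 UMIs was -0.02. H2A genes have near-identical copies, so reads may be split among them.

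The wider lists gave fewer genes past 1.5-fold once the cells with 10 or more genes were left out. Of 26 further S phase genes with at least 20 UMIs, 6 were at least 1.5-fold higher in Mr1-/- over all kept cells and none was lower, beside 4.86% and 5.53% of all genes. Among 28 further G2 and M genes the counts were 10 and 0, and among 18 genes of cell cycle entry and arrest 1 and 0. That gene was Mybl2, an activator of mitotic genes named here after its values were seen, with 7 and 13 UMIs and an interval of 0.853 to 6.81. Without those cells, none of 25 further S phase genes was higher and Ccne1 was lower. Of 22 further G2 and M genes Kif11 and Spc25 were higher and Kif23 lower, and of 17 entry and arrest genes Foxm1 was higher and E2f1 lower, all named after their values were seen. Of all genes without those cells, 4.59% were higher and 5.78% lower. The cyclin gene Ccnd2 had a ratio of 1.43 (1.30 to 1.58) with those cells and 1.15 (1.03 to 1.28) without them. Cdkn1a, which encodes an inhibitor of cyclin-dependent kinases, had 5565 and 3761 UMIs, a ratio of 0.837 (0.803 to 0.872).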

How the data were processed

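Per the file headers and values, the deposited matrices hold unnormalized UMI counts for each gene in each barcode. Cell Ranger 3.1.0 is named per the file headers, and Cell Ranger 5.1.0, STAR and mm10 per the submitters' processing notes; the labels' protocols name a 5' kit of 10x Genomics. Cells with at least 300 genes and at most 10% mitochondrial UMIs were kept, and doublets called by Scrublet (expected rate 0.05) were removed. Leiden clustering (2000 variable genes, 30 components, 15 neighbours, resolution 1.0, seed 7) left out all cell cycle lists. A class needed at least 3 markers found in 10% of its cells, and its 10 leading genes could not hold more foreign than own markers; 3 clusters that failed the second condition stayed unnamed. Python 3.11.15, scanpy 1.11.5, leidenalg 0.10.2, NumPy 2.4.6, SciPy 1.17.1 and pandas 2.3.3 were used.

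CPM was computed from summed counts. Shares have exact binomial intervals, differences of shares Newcombe intervals, and ratios exact conditional binomial intervals; a count of 0 allows up to 3. Counts past 1.5-fold used genes with at least 20 UMIs. The code was tested on simulated data. Named genes were all 37 members, the largest values and ratios per class, up to 6 genes of each other list, and up to 10 genes of no list that were at least 4 times as high in cells with 3 or more members. The members, lists and rules were chosen with earlier results of these data known. Alternatives covered filters, doublets, scaling, thinning, clustering and left-out genes; the limit of 10 genes, the results without those cells or without neuroblast-like cells, and the split of neuroblast-like cells were added after seeing the data. One marker result is not reported here.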

Additional observations from a re-analysis of the deposited data

How the results depend on the processing

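Of 54 results under alternative settings, 32 stayed close to the values reported, 21 moved past their counting interval (counts of genes, past 1.5 times), and 1, a ratio whose interval had lain above 1, reversed. The Mr1-/- over Mr1+/+ ratio of the share of cells with 3 or more genes was 0.958 (0.829 to 1.11) and became 1.99 after thinning to 1500 UMIs, 0.754 with 5 or more genes, 1.22 without the 9 genes common in oligodendrocyte-like cells and 2.54 with 10 or more genes, the first and the last 2 of these on the other side of 1. The S phase ratio of 1.44 became 1.19 with each cell weighed the same, 1.13 without Hist1h2ap, 1.09 without the cells with 10 or more genes, 1.07 without neuroblast-like cells, and 0.989, on the other side of 1, without Hist1h2ap and those cells. The G2 and M ratio of 1.69 became 1.33 with each cell weighed the same, 1.94 without Hmgb2, 1.21 without the cells with 10 or more genes and 1.22 without neuroblast-like cells. The 18 genes past 1.5-fold higher became 2, and the 0 lower became 1, without the cells with 10 or more genes. Thinning took the share with 3 or more genes to 5% and 28.8% in neuroblast-like cells and to 0.387% and 0.212% in oligodendrocyte-like cells. The Mr1+/+ S phase share of UMIs in cells with 3 or more genes, 73.5%, was 80.2% without Hmgb2 and Hist1h2ap. In cells with 10 or more genes the S phase shares of 52.1% and 65.4% became 42.0% and 43.0% without Hist1h2ap. The causes were not tested, beyond the fewer cells, genes or UMIs each setting leaves. No paired analysis was possible because each genotype had 1 library. Clustering with cell cycle genes or at resolution 2.0 left the same 119 neuroblast-like and 2393 oligodendrocyte-like cells, though resolution 2.0 split the former into 2 clusters. With 6 and 13 cells behind the results on cells with 10 or more genes, the counting error of those numbers of cells is wide. Variation between mice was not measured.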
